A study of Homo sapiens with 6 samples.

Results

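The genes described are the 5 best known ubiquitin-binding receptors of selective autophagy, SQSTM1, NBR1, OPTN, TAX1BP1 and CALCOCO2, together with TBK1, the kinase that phosphorylates several of them. They were taken by symbol as 6 of the 60843 genes in the deposited expression table, and all 6 were measured well above the filter on low values. RNA was sequenced from SW872-S, a human liposarcoma line. The 3 TP53INP2_OE libraries came from cells with a plasmid that overexpresses TP53INP2, and the 3 NC libraries from cells labelled TP53INP2 NC, the control. The medium was DMEM with fetal bovine serum for all of them, and no drug or other treatment is named. The design text mentions 2 cell sources without saying what they are, so a difference in source and the plasmid cannot be told apart. Nothing states that replicate libraries are separate cultures, so p-values measure the spread between libraries, which may be technical. Between 16038062 and 17607612 reads per library were recovered from the table.

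Selective autophagy receptors link a cargo marked with ubiquitin to the growing autophagosome. Each binds ubiquitin on one side and ATG8 proteins (LC3 and GABARAP) on the other, and several also recruit the initiation factor FIP200 (RB1CC1). Damaged mitochondria, protein aggregates and invading bacteria are their best known cargoes. TBK1 phosphorylates OPTN, SQSTM1 and CALCOCO2, which strengthens their binding to cargo or to ATG8 proteins. TP53INP2 itself leaves the nucleus when autophagy is induced and binds ATG8 proteins. Because receptors are degraded together with their cargo, their protein levels can move apart from their RNA. The values here are RNA levels only. In a bulk culture, fewer cells that express a gene and less RNA per cell cannot be told apart.

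Over whole coding sequences the 3 genes with the largest changes lie at the extremes of base composition among the 6. Fold changes followed the base composition of whole transcripts in these data, so the first 90 coding bases of their principal transcripts are shown, from GENCODE 29 on GRCh38. Capitals mark G and C. SQSTM1 (chr5, plus strand, start codon at 179820937) has 66.7% G and C in this stretch. TAX1BP1 (chr7, plus strand, start codon at 27748525) has 42.2%, and TBK1 (chr12, plus strand, start codon at 64455871) has 38.9%. A stretch this short does not stand for the gene: that of NBR1, not shown, has 34.4%, those of CALCOCO2 and OPTN 47.8% and 58.9%.
SQSTM1: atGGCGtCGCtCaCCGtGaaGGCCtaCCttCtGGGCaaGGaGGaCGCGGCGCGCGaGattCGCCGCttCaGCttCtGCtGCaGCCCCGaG
TAX1BP1: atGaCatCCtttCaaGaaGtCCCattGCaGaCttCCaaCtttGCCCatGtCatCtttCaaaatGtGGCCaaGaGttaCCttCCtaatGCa
TBK1: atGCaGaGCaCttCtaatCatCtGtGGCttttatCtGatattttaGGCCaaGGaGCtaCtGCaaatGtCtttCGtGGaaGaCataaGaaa

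Over the whole coding sequence the G and C content was 61.6% in SQSTM1, 39.8% in TAX1BP1 and 37.4% in TBK1. At the third codon position, where bases are freest to vary, it was 71.1% in SQSTM1, 33% in TAX1BP1 and 29.8% in TBK1. The remaining receptors lay between them over the coding sequence, at 49.0% for NBR1, 47.5% for OPTN and 45% for CALCOCO2.

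The targeted gene checked the labels. TP53INP2 (chr20:34704339-34713439, GRCh38) was at 18.9, 23.4 and 27.1 FPKM in the TP53INP2_OE libraries, against 10.6, 9.45 and 9.67 FPKM in the NC libraries. FPKM are fragment counts scaled by gene length and by library size. All TP53INP2_OE libraries were above all NC libraries, and the log2 fold change was 1.13 ± 0.12 (SE, limma adjusted p = 0.00282). Fold changes here are differences of log2(FPKM + 1), which understates the change of low genes, the more so the lower their level. Mesenchymal markers summed to between 1170 and 1220 FPKM in the TP53INP2_OE libraries and between 1170 and 1240 FPKM in the NC libraries, with COL1A2 and THY1 near 0. The sums were carried by VIM, at 751 FPKM in TP53INP2_OE and 731 FPKM in NC, and 4 of the 5 tested markers passed the test. NT5E was higher, at 137 FPKM in TP53INP2_OE and 89 FPKM in NC, and COL1A1, ENG and S100A4 were lower. The 5 adipocyte markers were all below 0.5 FPKM, with ADIPOQ, FABP4 and LEP at 0 in all libraries, and so were all 5 leukocyte and all 4 epithelial markers. The 3 endothelial markers summed to between 32.0 and 33.4 FPKM in the TP53INP2_OE libraries and between 34.5 and 39.1 FPKM in the NC libraries, mostly from CDH5. Their part in the results was not tested.

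By FPKM, OPTN was the most abundant receptor RNA in the control cells and TBK1 the least abundant of the 6 genes. The NC means were 37.3 ± 0.53 FPKM for OPTN, 28.7 ± 0.50 for SQSTM1, 15.4 ± 0.30 for TAX1BP1, 13.9 ± 0.74 for NBR1, 13.6 ± 0.31 for CALCOCO2 and 6.44 ± 0.35 for TBK1 (SD, n = 3). NBR1 and CALCOCO2 overlapped and do not have an order, while each other neighbour in the order was apart from the next in every NC library. In the TP53INP2_OE libraries NBR1 and CALCOCO2 again overlapped, with CALCOCO2 slightly above NBR1 within each library. The order of the other genes was the same there. This order depends on the gene lengths behind FPKM, 5138 bases for OPTN and 7535 bases for SQSTM1. Their principal transcripts have 3488 and 2986 bases. SQSTM1 had more reads than OPTN in every NC library and fewer in every TP53INP2_OE library. Among the 14791 tested genes, those with a mean of at least 0.5 FPKM, OPTN lay at the 92.7th percentile of level, SQSTM1 at the 88.9th, TAX1BP1 at the 82.2nd and TBK1 at the 60.7th.

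With TP53INP2 raised, TAX1BP1, TBK1 and CALCOCO2 RNA rose and SQSTM1 RNA fell, each by 1.30-fold or less. NBR1 and OPTN did not pass the test. Thus 4 of the 6 genes passed an adjusted p of 0.05, 3 of them higher, while 35% of all tested genes passed, 16.4% higher and 18.6% lower. The share was 42.8% among protein-coding genes and 57.2% among protein-coding genes averaging 5 FPKM or more, as all 6 genes have. The median log2 fold change was 0.10 over the 6 genes and 0.0032 over all tested genes. The 2 groups did not overlap for 5 of the 6 genes, all but NBR1, and for 50.8% of all tested genes, 25.2% with all TP53INP2_OE libraries above and 25.6% with all below. A call by itself therefore does not set a gene apart in this comparison.

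**Figure D1:**
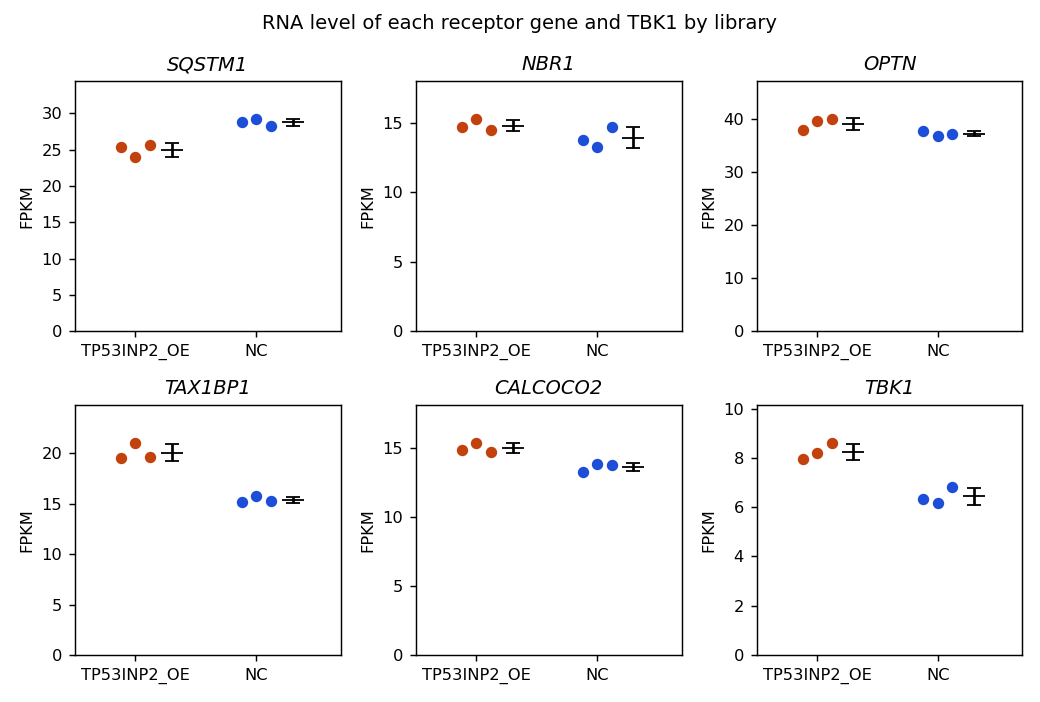
FPKM of each of the 6 genes in each library (points), with the 3 TP53INP2_OE libraries left of the 3 NC libraries and the mean ± SD beside each group; each vertical axis starts at 0. SQSTM1 is lower in every TP53INP2_OE library, TAX1BP1, CALCOCO2 and TBK1 are higher in every one, and the groups of NBR1 overlap.

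TAX1BP1 changed most among the receptors. It binds ubiquitin, recruits FIP200 to cargo and clears protein aggregates, and it also serves as an adaptor of the ubiquitin-editing enzyme A20. The gene lies at chr7:27739331-27844564 (GRCh38). It was at 19.5, 21.0 and 19.6 FPKM in the TP53INP2_OE libraries and at 15.2, 15.8 and 15.3 FPKM in the NC libraries. Every TP53INP2_OE library was above every NC library, and the gap was several times the spread within either group. The means were 20.1 ± 0.85 FPKM in TP53INP2_OE and 15.4 ± 0.30 FPKM in NC (SD, n = 3 each), a ratio of 1.30. The log2 fold change was 0.36 ± 0.042 (SE), with a limma 95% interval of 0.26 to 0.46 and an adjusted p of 0.00296. In size it exceeded 84.0% of tested genes. JAZF1 overlaps the end of TAX1BP1 on the opposite strand and averaged 5.37 FPKM in TP53INP2_OE and 4.43 FPKM in NC. The sources do not say if counting used strand, so reads of overlapping genes cannot be told apart.

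TBK1 encodes the kinase that acts on the receptors and that also activates the transcription factor IRF3 in innate immune signalling. It lies at chr12:64452092-64502114, in the region of chromosome 12 that liposarcomas often amplify. Its level was 7.96, 8.19 and 8.61 FPKM in the TP53INP2_OE libraries, against 6.33, 6.16 and 6.83 FPKM in the NC libraries. The lowest TP53INP2_OE library was above the highest NC library. The group means were 8.25 ± 0.33 FPKM in TP53INP2_OE and 6.44 ± 0.35 FPKM in NC (SD, n = 3 each), a ratio of 1.28. The log2 fold change was 0.32 ± 0.053 (SE, 95% interval 0.19 to 0.44, limma adjusted p = 0.00624). TBK1 had the fewest reads of the 6 genes, between 822 and 898 per TP53INP2_OE library and between 658 and 777 per NC library.

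SQSTM1 (p62) was the gene that fell. Its protein forms filaments through a PB1 domain, gathers ubiquitinated cargo into condensates and binds KEAP1, the inhibitor of the transcription factor NRF2. The gene spans chr5:179806398-179838078. SQSTM1 was at 25.3, 23.9 and 25.7 FPKM in the TP53INP2_OE libraries and at 28.8, 29.2 and 28.2 FPKM in the NC libraries. No TP53INP2_OE library reached the lowest NC library. On average it was 25.0 ± 0.92 FPKM in TP53INP2_OE and 28.7 ± 0.50 FPKM in NC (SD, n = 3 each), a change of -13.1%. The log2 fold change of -0.20 ± 0.039 (SE) had a 95% interval of -0.29 to -0.10 and a limma adjusted p of 0.0102. MGAT4B, which overlaps the start of SQSTM1 on the opposite strand, averaged 26.8 FPKM in TP53INP2_OE and 35.0 FPKM in NC. It ends at position 179806952, before the principal SQSTM1 transcript starts at 179820759. Its part in the SQSTM1 values was not tested. MRNIP, which overlaps the end of SQSTM1, averaged 1.81 FPKM in TP53INP2_OE and 1.63 FPKM in NC. The pseudogene SQSTM1P1 was at 0 in all libraries.

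CALCOCO2 (NDP52) binds galectin-8 on damaged vesicles as well as ubiquitin, and with OPTN it is a main receptor of damaged mitochondria. It lies at chr17:48830988-48866522. It was at 14.9, 15.3 and 14.7 FPKM in the TP53INP2_OE libraries, against 13.3, 13.8 and 13.7 FPKM in the NC libraries. The groups did not overlap, but the increase was small, with means of 14.96 ± 0.34 FPKM in TP53INP2_OE and 13.6 ± 0.31 FPKM in NC (SD, n = 3 each). The log2 fold change was 0.13 ± 0.038 (SE, 95% interval 0.037 to 0.22, limma adjusted p = 0.0396). This call is the least secure of the 4, since leaving out any single library ended it, with adjusted p from 0.0684 to 0.13.

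OPTN, whose binding to LC3 is strengthened by TBK1, lies at chr10:13099449-13138308. Its level was 37.85, 39.56 and 39.96 FPKM in the TP53INP2_OE libraries and 37.79, 36.73 and 37.25 FPKM in the NC libraries. Every TP53INP2_OE library was above every NC library, though the nearest pair differed by less than the spread within a group. The log2 fold change was 0.07 ± 0.035 (SE, 95% interval -0.014 to 0.15, limma adjusted p = 0.173). NBR1, which works with SQSTM1 in condensates of ubiquitinated proteins, lies at chr17:43170481-43211689. It was at 14.7, 15.3 and 14.4 FPKM in the TP53INP2_OE libraries and at 13.8, 13.3 and 14.7 FPKM in the NC libraries, where the third NC library lay within the TP53INP2_OE range. The log2 fold change was 0.08 ± 0.048 (SE, 95% interval -0.033 to 0.20, limma adjusted p = 0.232). AC060780.1, a noncoding gene on the opposite strand that overlaps the start of NBR1, averaged 1.69 FPKM in TP53INP2_OE and 1.54 FPKM in NC. The exact two-sided permutation test gave p = 0.3 for NBR1 and p = 0.1 for each of the other members, the smallest p that 3 against 3 libraries allow.

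In the receptor pool SQSTM1 had a smaller share and TAX1BP1 a larger share in TP53INP2_OE. The 5 receptors together, without TBK1, summed to 113.9 ± 1.51 FPKM in TP53INP2_OE and 108.9 ± 0.24 FPKM in NC (SD, n = 3 each). SQSTM1 made up 22.6, 20.8 and 22.4% of that sum in the TP53INP2_OE libraries, against 26.5, 26.8 and 25.8% in the NC libraries. TAX1BP1 made up 17.38, 18.28 and 17.16% in the TP53INP2_OE libraries, against 13.95, 14.49 and 14.01% in the NC libraries. CALCOCO2 made up 13.25, 13.33 and 12.83% in the TP53INP2_OE libraries, against 12.19, 12.72 and 12.58% in the NC libraries. These 3 shares did not overlap between the groups (exact permutation p = 0.1 for each, the smallest possible). In FPKM itself, the groups did not overlap for 50.8% of all tested genes. Shares of one sum also depend on each other, so they restate the fold changes above. OPTN kept the largest share, 34.4 ± 0.61% in TP53INP2_OE and 34.2 ± 0.49% in NC, with overlapping libraries (exact permutation p = 0.8). These shares are of FPKM as deposited, and differences in GC content and the gene lengths used for FPKM enter them.

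**Figure D2:**
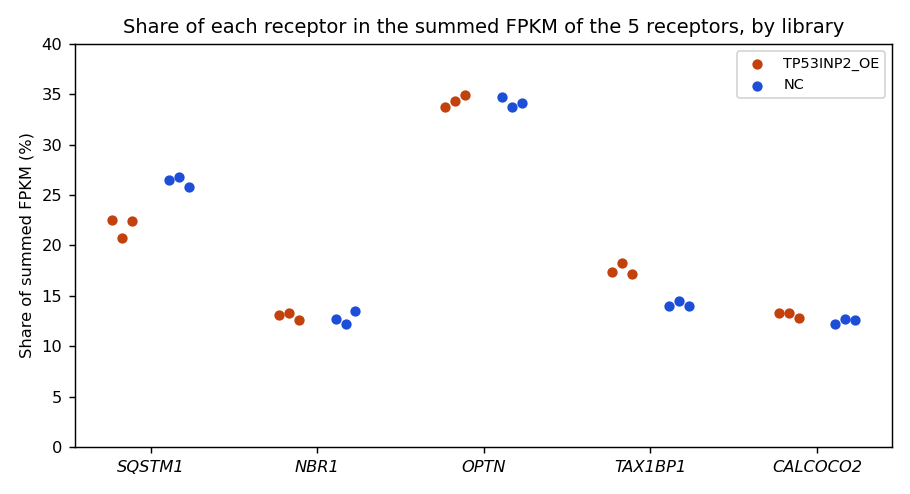
Share of each receptor in the summed FPKM of the 5 receptors, in percent, for each TP53INP2_OE library (left points) and each NC library (right points). SQSTM1 has a smaller share and TAX1BP1 a larger share in every TP53INP2_OE library, and OPTN holds about the same share in both groups.

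Ratios within a library do not depend on how that library was scaled. TAX1BP1 over SQSTM1 was 0.771, 0.880 and 0.765 in the TP53INP2_OE libraries and 0.527, 0.540 and 0.543 in the NC libraries. The pair thus came closer together in every TP53INP2_OE library, with means of 0.805 ± 0.065 in TP53INP2_OE and 0.537 ± 0.0083 in NC (SD, n = 3 each). TBK1 over OPTN, the kinase over one of its main substrates, was 0.211 ± 0.0042 in TP53INP2_OE and 0.173 ± 0.0092 in NC. TBK1 over TAX1BP1 was 0.412 ± 0.025 in TP53INP2_OE and 0.418 ± 0.028 in NC, with overlapping libraries (exact permutation p = 0.7). NBR1 over CALCOCO2 was 0.989 ± 0.0051 in TP53INP2_OE and 1.02 ± 0.058 in NC, also overlapping (exact permutation p = 0.4). A ratio shows unequal change of its genes and not which of them moved, and it does not remove a trend with base composition. On the log2(FPKM + 1) scale, TAX1BP1 minus SQSTM1 was 0.55 higher in TP53INP2_OE than in NC as deposited. It was 0.16 higher, with the groups still apart, with the trends in GC content and gene length subtracted.

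The direction of change followed the base composition of the transcripts across the whole table. Among 10 equal groups of tested protein-coding genes ordered by the G and C (GC) content of the principal transcript, the median log2 fold change was 0.25 in the group poorest in GC and -0.33 in the richest. TAX1BP1 (39.2% GC) and TBK1 (39.3%) lay in the second of these groups, where the median was 0.20 and, of 1126 genes, 584 were higher and 12 lower. NBR1 (44.9%), OPTN (44.8%) and CALCOCO2 (44.2%) lay in the fourth, where the median was 0.095. SQSTM1 (58.0%) lay in the eighth, where the median was -0.20 and, of 1127 genes, 540 were lower and 10 higher. SQSTM1, at -0.20, thus stood at the median of genes of its GC content, and CALCOCO2, NBR1 and OPTN, at 0.13, 0.08 and 0.07, stood near theirs. TAX1BP1, at 0.36, and TBK1, at 0.32, were above theirs.

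**Figure D3:**
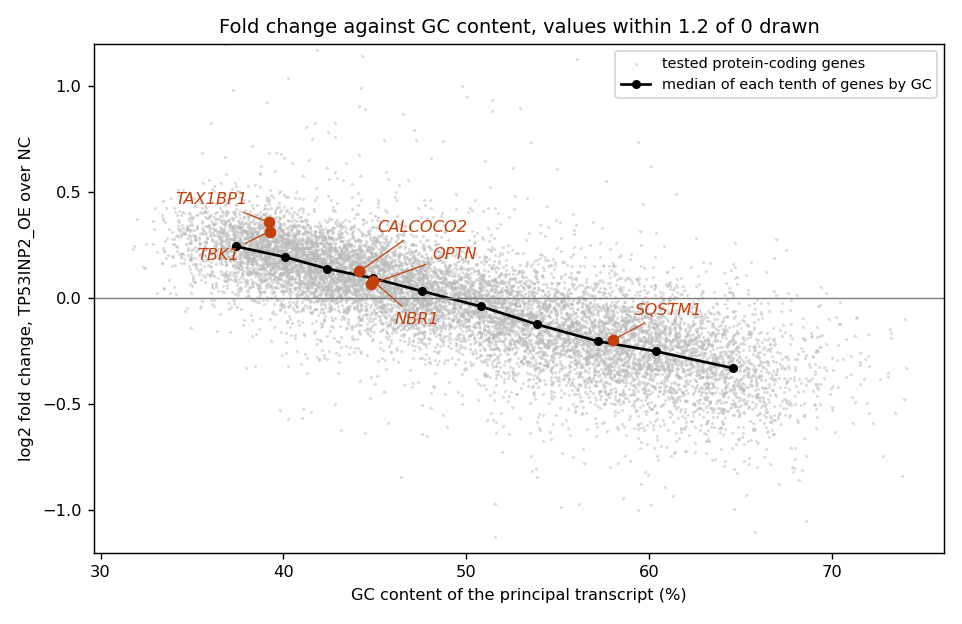
Log2 fold change, TP53INP2_OE over NC, against the GC content of the principal transcript for 11270 protein-coding genes (grey), with the median of 10 equal groups of genes by GC content (black line) and the 6 genes named; 7 genes beyond 1.2 are not drawn. The black line falls from left to right, SQSTM1, NBR1, OPTN and CALCOCO2 lie close to it, and TAX1BP1 and TBK1 lie above it.

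When the trend with GC content and gene length was fitted in each library and subtracted, the changes of 3 of the 4 called genes were no longer past the threshold. Using the GC content of the principal transcript, 9.97% of 14548 genes passed, and TAX1BP1 was the only one of the 6 that did. Its corrected log2 fold change was 0.15 ± 0.034 (SE, 95% interval 0.070 to 0.23, limma adjusted p = 0.0412). Corrected TAX1BP1 values, on the log2 scale, were 4.29, 4.31 and 4.27 in the TP53INP2_OE libraries and 4.13, 4.19 and 4.10 in the NC libraries, still apart. TBK1 fell short at 0.11 ± 0.047 (SE, 95% interval 0.0017 to 0.23, limma adjusted p = 0.18). Intervals are not adjusted for the number of genes tested. The groups of TBK1 also stayed apart, at 3.10, 3.06 and 3.17 in the TP53INP2_OE libraries and 2.99, 2.95 and 3.04 in the NC libraries. The share of all genes that stayed apart after correction was not counted. SQSTM1 came to -0.0063 ± 0.027 (SE, adjusted p = 0.916, 95% interval -0.072 to 0.059) and CALCOCO2 to 0.011 ± 0.030 (SE, adjusted p = 0.866). NBR1 came to -0.017 and OPTN to -0.023, each with a sign opposite to the uncorrected value. Subtracting the trend takes away biological and technical differences alike wherever they follow GC content, and their parts were not tested.

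The size of the corrected TAX1BP1 change depended on which transcript stands for the gene. The correction left 10.4% of genes past the threshold with the longest transcript and 10.6% with the mean over transcripts. With the longest transcript, ENST00000488564.2 of 4020 bases and 48.0% GC, it was 0.34 (limma adjusted p = 0.00916). With the principal transcript, ENST00000396319.6 of 2892 bases and 39.2% GC, it was 0.15, and with the mean GC content of all 13 transcripts, 40.9%, it was 0.15 (adjusted p = 0.0406). With the principal transcript, leaving out any single library gave 0.13 to 0.17 with adjusted p from 0.0574 to 0.133. The corrected call for TAX1BP1 thus rests on having all 6 libraries. Fewer genes passed in these fits in general, 1.1 to 6.34% of those tested, against 9.97% with all 6 libraries.

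**Figure D4:**
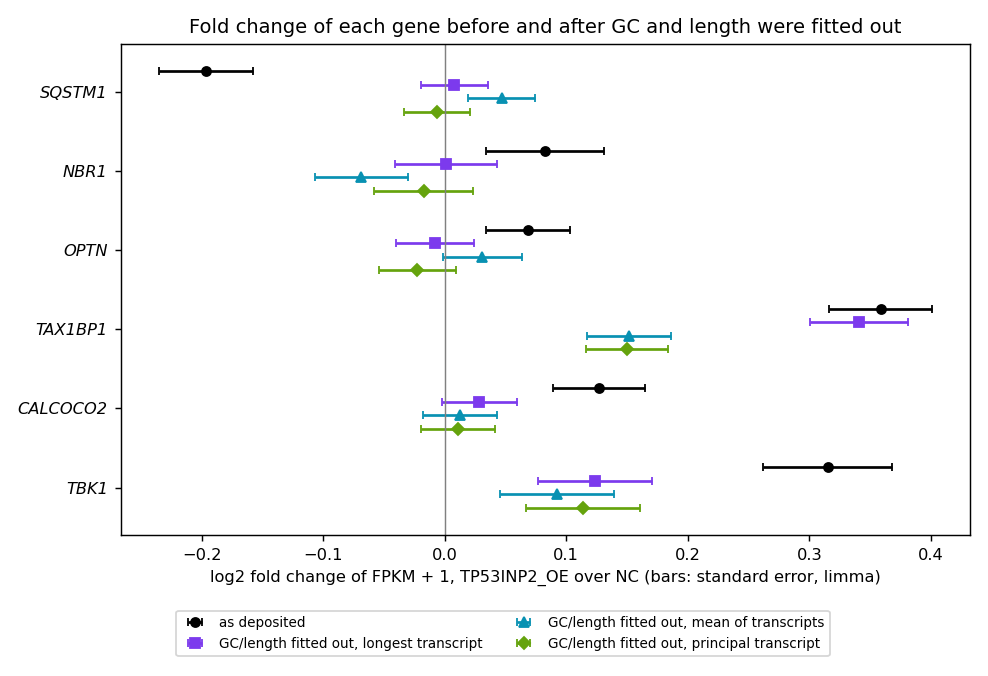
Log2 fold change, TP53INP2_OE over NC, of each of the 6 genes as deposited and after the trend with GC content and gene length was fitted out with 3 measures of GC content; bars are limma standard errors. SQSTM1 moves to near 0, TAX1BP1 stays above 0 under each measure, at 0.34 with the longest transcript and 0.15 with the other measures, and TBK1 moves to about 0.1.

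RefSeq promoter windows (GRCh38.p14), from 250 bases before to 50 bases after a start site, were read for the 6 genes and searched on both strands for 3 motif cores. These were CACGTG, the core bound by MiT-TFE and MYC family factors, TGACNNNGC, the core of the antioxidant response element bound by NRF2, and the core of the interferon-stimulated response element (GAAA, any 2 bases, GAAA). The windows of the pair that rose most are shown, TBK1 at chr12:64451870-64452169 and TAX1BP1 at chr7:27739912-27740211, both on the plus strand, with the CACGTG match of TBK1 in capitals.
TBK1: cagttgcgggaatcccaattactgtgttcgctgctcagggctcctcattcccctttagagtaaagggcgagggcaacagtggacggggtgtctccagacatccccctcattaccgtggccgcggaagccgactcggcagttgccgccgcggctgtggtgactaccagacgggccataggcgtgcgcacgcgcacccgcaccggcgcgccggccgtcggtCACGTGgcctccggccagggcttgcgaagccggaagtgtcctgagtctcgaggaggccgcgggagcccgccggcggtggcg
TAX1BP1: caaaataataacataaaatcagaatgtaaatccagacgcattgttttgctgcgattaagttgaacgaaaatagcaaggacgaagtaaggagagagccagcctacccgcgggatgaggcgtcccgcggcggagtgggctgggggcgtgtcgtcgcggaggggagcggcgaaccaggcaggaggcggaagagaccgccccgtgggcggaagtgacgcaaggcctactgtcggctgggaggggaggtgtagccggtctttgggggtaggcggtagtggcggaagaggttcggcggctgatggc

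The CACGTG match in TBK1 began at position -31 from the RefSeq start site, which lies 240 bases downstream of the start of the GENCODE principal transcript, so the match is within the span of that transcript, and 7.2% of 34796 windows hold that core. CALCOCO2 held TGACNNNGC on the minus strand (read on the plus strand as GCCCGGTCA, beginning at position -129), as do 13.34% of windows. The windows of SQSTM1, NBR1, OPTN and TAX1BP1 held no match to these cores, and no window of the 6 genes held the interferon-stimulated core, found in 3.57% of windows. A match describes the letters of the window only.

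The partners of the receptors were described through 9 lists of 91 genes, of which 88 were tested and 50 passed, 27 higher and 23 lower, with a median log2 fold change of 0.079. That is 56.8%, beside 57.2% of protein-coding genes averaging 5 FPKM or more, 42.8% of all tested protein-coding genes and 35% of all tested genes. Some of the 88 average less than 5 FPKM, so none of these shares is an exact match. The counts by list given below stand beside the same shares. They ran from 42.9% of 7 signalling partners of SQSTM1 to 85.7% of 7 vesicle, galectin and motor partners. After correction with each of the 3 measures of GC content, 11 of the 88 (12.5%) passed in the same direction, 4 higher and 7 lower, against 11.8% of those protein-coding genes and 6.78% of all tested genes. Each of the 11 lost its corrected call in at least 1 of the 6 fits that left out a library (principal transcript). Over all genes, those 6 fits left 1.1 to 6.34% past the threshold, against 9.97% with all libraries. Unless another is named, corrected values of partner genes use the principal transcript. Of the partner genes named below, RB1CC1, TRAF3, MAP3K2, HMGA2 and LGALS8 missed the threshold with the principal transcript but passed with the mean over transcripts. LGALS3 passed after correction only with the longest transcript. Calls of partner genes not named here also differed between the measures. The count of partners past the threshold fell to 30 without the first NC library.

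Among the genes of the proteins that receptors hand their cargo to, RNA of LC3B rose. Of 7 tested genes of ATG8 proteins and FIP200, 3 rose and 1 fell in RNA, with a median of 0.16. MAP1LC3B, the LC3 form most used to mark autophagosomes, was at 29.7, 33.4 and 32.1 FPKM in the TP53INP2_OE libraries and at 23.2, 23.8 and 24.2 FPKM in the NC libraries. All TP53INP2_OE libraries were above all NC libraries, and the log2 fold change was 0.40 ± 0.049 (SE, adjusted p = 0.00308) as deposited and 0.39 (adjusted p = 0.0106) corrected with the principal transcript. MAP1LC3B2, a near-identical copy of MAP1LC3B with a log2 fold change of 0.33, is uncertain because reads of the copies may have been exchanged. RB1CC1, which encodes FIP200, the factor that TAX1BP1 and CALCOCO2 recruit, was at 13.98 ± 0.44 FPKM in TP53INP2_OE and 10.88 ± 0.34 FPKM in NC, a log2 fold change of 0.33 (adjusted p = 0.00327). Corrected, it was 0.11 (adjusted p = 0.0673) with the principal transcript and 0.23 (adjusted p = 0.0159) with the mean over transcripts. MAP1LC3A fell by 0.30 on the log2 scale as deposited (adjusted p = 0.0138), and turned to 0.034 after correction.

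Among the 9 listed partners of TBK1, 5 fell and none rose, with a median of -0.22. These 5 were 55.6% of the list, beside 57.2% called in either direction among protein-coding genes averaging 5 FPKM or more. After correction the median was between -0.024 and -0.012 with the 3 measures of GC content, and 2 or 3 partners were lower. IRF3, the transcription factor that TBK1 activates, was at 11.5, 9.64 and 11.6 FPKM in the TP53INP2_OE libraries and at 15.8, 16.2 and 16.2 FPKM in the NC libraries. The groups were well apart, with a log2 fold change of -0.52 ± 0.071 (SE, adjusted p = 0.00355) as deposited and -0.25 (adjusted p = 0.0351) corrected. Leaving out any single library ended the corrected call (adjusted p from 0.0565 to 0.102). MAVS, the mitochondrial adaptor of RNA sensing, was at -0.21 as deposited (adjusted p = 0.0132) and -0.17 corrected (adjusted p = 0.0353). The scaffold TBKBP1 was at -0.33, the sister kinase IKBKE at -0.25 and TRAF3, an adaptor that brings TBK1 to activated receptors, at -0.22, and with the principal transcript none of these passed after correction. All 3 are rich in GC, from 54.5% in TRAF3 to 65.4% in TBKBP1. Among the 10 listed genes near TBK1 on the long arm of chromosome 12, 5 rose and 2 fell, with a median of 0.17. Together they were 70% of that list, beside the same 57.2%. HMGA2, an architectural chromatin factor amplified in many liposarcomas, rose by 0.36, and FRS2, an adaptor of FGF receptors, by 0.36. OS9, which takes part in the degradation of misfolded glycoproteins, fell by 0.41 on the log2 scale, and CDK4, a kinase of the cell cycle, by 0.28. Of these 4, OS9 passed after correction with the principal transcript, at -0.29 (adjusted p = 0.0213).

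In the KEAP1-NRF2 axis tied to SQSTM1, genes went both ways, with 3 higher and 2 lower of 11 and a median of 0.038. NFE2L2, which encodes NRF2, was at 19.9 ± 1.57 FPKM in TP53INP2_OE and 16.0 ± 0.31 FPKM in NC, a log2 fold change of 0.29 (adjusted p = 0.0101). KEAP1 was at 20.6 ± 0.22 FPKM in TP53INP2_OE and 25.1 ± 0.90 FPKM in NC, a log2 fold change of -0.27 (adjusted p = 0.00371) that came to -0.021 after correction. The NRF2 targets did not all move one way. ME1, a source of NADPH, rose by 0.38 and GCLM, a subunit of the enzyme that starts glutathione synthesis, by 0.28, while SRXN1, which repairs oxidised peroxiredoxins, fell to 1.96 ± 0.45 FPKM in TP53INP2_OE, against 3.94 ± 0.43 FPKM in NC (log2 fold change -0.74, adjusted p = 0.00564). After correction with the principal transcript SRXN1 was at -0.63 (adjusted p = 0.0259) and NFE2L2 at 0.22 (adjusted p = 0.0481). Both passed, while ME1 and GCLM did not. NQO1, another NRF2 target, was at -0.10 (adjusted p = 0.0631) as deposited and -0.15 (adjusted p = 0.0422) after that correction. It did not pass with the mean over transcripts (adjusted p = 0.0604). Of the 11 listed genes, 1 was thus higher and 2 were lower after correction with the principal transcript. The corrected call of NFE2L2 was lost with the mean over transcripts (adjusted p = 0.0729) and, with the principal transcript, whichever library was left out (adjusted p from 0.0554 to 0.141).

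RNA of A20, the ubiquitin-editing enzyme that TAX1BP1 serves, rose. Of 10 tested genes of the linear ubiquitin and A20 axis, 3 rose and 3 fell, with a median of 0.096. TNFAIP3, which encodes A20, was at 56.0, 59.0 and 62.7 FPKM in the TP53INP2_OE libraries and at 40.2, 47.5 and 38.3 FPKM in the NC libraries. The groups did not overlap, and the log2 fold change was 0.49 ± 0.084 (SE, adjusted p = 0.00653) as deposited and 0.50 (adjusted p = 0.0188) corrected. RBCK1 (HOIL-1), a subunit of the enzyme that builds linear ubiquitin chains, was at 24.0 ± 0.21 FPKM in TP53INP2_OE and 35.6 ± 2.45 FPKM in NC, a log2 fold change of -0.55 (adjusted p = 0.0027) that came to -0.24 (adjusted p = 0.0313) corrected. SHARPIN, another subunit of that enzyme, was at -0.40 and passed only without the correction. IKBKG (NEMO), at -0.29, has a near-identical pseudogene copy, so its value is uncertain.

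**Figure D5:**
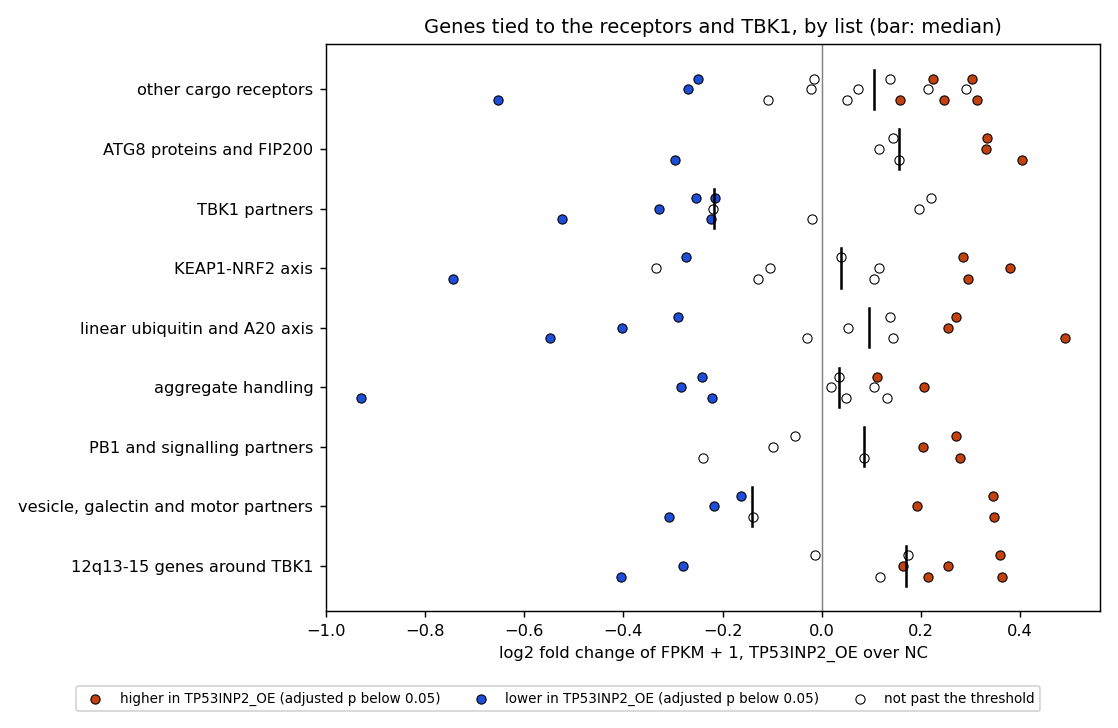
Log2 fold change of the 88 tested partner genes by list, TP53INP2_OE over NC; filled points passed the adjusted threshold, open points did not, and the black bar is the list's median. As deposited, none of the 9 TBK1 partners is among the higher genes; after correction with the principal transcript 3 other lists have none either.

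Of 11 genes that act on protein aggregates beside the receptors, 2 rose and 4 fell, with a median of 0.035. STUB1 (CHIP), a ubiquitin ligase that marks misfolded proteins held by chaperones, was at 12.8, 9.80 and 14.2 FPKM in the TP53INP2_OE libraries and at 24.4, 24.8 and 22.9 FPKM in the NC libraries. On the log2(FPKM + 1) scale STUB1 had the largest decrease among the partner genes named here. Its log2 fold change was -0.93 ± 0.12 (SE, adjusted p = 0.00328) as deposited and -0.60 (adjusted p = 0.0162) corrected. By the ratio of mean FPKM, TP53INP2_OE over NC, SRXN1 fell slightly more, at 0.498 against 0.511 for STUB1. HDAC6, which carries aggregates along microtubules, was at -0.28, UBQLN4, a shuttle to the proteasome, at -0.24, and the co-chaperone BAG3 at -0.22, and none of them passed after correction.

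Of 16 tested cargo receptors outside the 5, 5 rose and 3 fell, with a median of 0.11. SEC62 and CCPG1, receptors for the endoplasmic reticulum, were at 0.31 and 0.30. FKBP8, a mitophagy receptor of the outer mitochondrial membrane, fell to 39.3 ± 3.65 FPKM in TP53INP2_OE, against 62.4 ± 5.33 FPKM in NC, and PHB2, of the inner mitochondrial membrane, was at -0.27. For FKBP8 the log2 fold change was -0.65 as deposited (adjusted p = 0.00327) and -0.32 (adjusted p = 0.0237) corrected, and SEC62, CCPG1 and PHB2 did not pass after correction. NCOA4 was the only gene of this list higher after correction with the principal transcript. It was at 0.25 as deposited (adjusted p = 0.00533) and 0.20 (adjusted p = 0.0239) corrected, but did not pass with the longest transcript (adjusted p = 0.0508). Of 7 signalling partners of SQSTM1, 3 rose and none fell, with a median of 0.085. These were the kinase MAP3K2 at 0.28, the atypical protein kinase C gene PRKCI at 0.27 and the ubiquitin ligase TRAF6 at 0.20, and none passed after correction with the principal transcript. Of 7 vesicle, galectin and motor partners, 3 rose and 3 fell, with a median of -0.14. That is 85.7% of a short list, beside 57.2% of protein-coding genes averaging 5 FPKM or more. LGALS8, which encodes the galectin that CALCOCO2 binds, was at 5.63 ± 0.091 FPKM in TP53INP2_OE and 4.22 ± 0.073 FPKM in NC, a log2 fold change of 0.35 (adjusted p = 0.00325) that came to 0.17 (adjusted p = 0.0676) corrected. RAB8B was at 0.35, LGALS3 at -0.31 and RAB35 at -0.22, and none of these passed after correction with the principal transcript.

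The profile of each of the 6 genes over the 6 libraries was matched by genes of quite different roles. Likeness was measured as the root mean square difference of log2(FPKM + 1) values centred on each gene's mean, over 6903 protein-coding genes of at least 5 FPKM. The nearest to TAX1BP1 were CALM2 at 0.0138 and PSME4 at 0.016, against a spread of 0.183 for TAX1BP1 itself. For TBK1, SMNDC1 was at 0.0151, and SQSTM1 was nearest to SH3BGRL3 at 0.0111 and ANKRD11 at 0.0154. For CALCOCO2 they were PNPT1 at 0.0097 and CNBP at 0.014, for NBR1 CENPF at 0.0095 and VKORC1L1 at 0.0135, and for OPTN RBM33 at 0.0141 and NUP50 at 0.0155. With 6 libraries in 2 groups, such likeness mostly reflects fold changes of one size.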

How the data were processed

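Per the labels, RNA of SW872-S cells was taken up in Trizol and made into TruSeq libraries. The authors deposited FPKM values for 60843 genes, with name, position and gene length, per the file headers. Bowtie 0.12.2, mm8 and GRCh38 appear in the submitters' processing notes with no role, the counting step and its use of strand being not given in the sources used here. Of the gene IDs, 96.2% were found in GENCODE 29 (GRCh38), of which 99.92% lay on the same chromosome. FPKM times gene length gave whole multiples of 1 read for 100% of values above 0, within 0.01, which is how reads were recovered. No libraries were duplicates: the chi-square per degree of freedom was 2.58 to 4.97 within groups and 13.6 to 33.0 between them.

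Groups were compared with limma 3.58.1 (R 4.3.3; empirical Bayes with trend) on log2(FPKM + 1). Genes averaging under 0.5 FPKM were left out, and p-values were adjusted by Benjamini-Hochberg over all 14791 tested genes, with a threshold of 0.05. Every adjusted p is from limma. The correction fitted how far a gene in a library lay from its mean, using natural splines of GC content and of log2 gene length (5 degrees of freedom for each). The principal transcript is the APPRIS one. Both steps were tested on simulated data.

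The members and lists were chosen with earlier results of these data known. From each list the 4 called members with the largest change were named, or the 2 highest expressed where fewer than 2 passed. KEAP1, MAVS, NCOA4 and NQO1 were named after their values were seen. Of the 2 genes most like each member, 1 is not reported here.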

Additional observations from a re-analysis of the deposited data

How the results depend on the processing

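The direction and call of TAX1BP1, TBK1 and SQSTM1 held with pseudocounts of 0.1 and 0.5, no filter, a filter of 5 FPKM, protein-coding genes only, TPM, quantile normalization, voom on the recovered reads and each library left out in turn. CALCOCO2, at 0.1272, was no longer past the threshold without the filter, and OPTN, at 0.1264, passed it after quantile normalization. Deviations from the group means had correlations of 0.0107 to 0.017 between same-numbered libraries of the 2 groups. Between differently numbered ones they were -0.0272 to 0.015. Correlations taken over all genes, from means of 3 libraries, cannot show if the numbers pair the libraries. With the replicate number as a block, 4396 genes passed, and CALCOCO2, at 0.1272, did not.

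Fitting out GC content and gene length moved the results most. With the longest transcript, planned as an alternative, 1514 genes, 1 of the 6 and 18 partner genes passed, and the log2 fold changes were 0.0080 for SQSTM1, -0.0081 for OPTN, 0.0283 for CALCOCO2, 0.1239 for TBK1, 0.0282 for MAP1LC3A and 0.0004 for IKBKG. The replicate block with that correction gave the same fold changes, with 668 genes, 1 of the 6 and 7 partner genes past the threshold. The other measures of GC content were chosen after seeing the data. With the principal transcript, 1450 genes, 1 of the 6 and 16 partner genes passed, and the fold changes were -0.0063 for SQSTM1, -0.0174 for NBR1, -0.0226 for OPTN, 0.0106 for CALCOCO2, 0.1138 for TBK1 and 0.0339 for MAP1LC3A. With the block added, the fold changes stayed, 665 genes and 6 partner genes passed and 0 of the 6 did, TAX1BP1 missing the threshold at 0.15. With the mean over transcripts, 1541 genes, 1 of the 6 and 20 partner genes passed, and the fold changes were 0.0467 for SQSTM1, -0.0688 for NBR1, 0.0122 for CALCOCO2, 0.0921 for TBK1, 0.0415 for MAP1LC3A, 0.0246 for BAG3 and 0.0128 for RAB35.

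Each library was left out in turn, as deposited and with the principal-transcript correction, 12 fits in all. The genes past the threshold ranged from 160 (corrected, without the first NC library) to 4808, those of the 6 from 0 to 3 and partner genes from 0 to 48. As deposited, leaving out the first NC library gave the fewest, 3265 genes. Fold changes ranged from -0.2157 to 0.0026 for SQSTM1, -0.0484 to 0.1208 for NBR1, -0.0429 to 0.0916 for OPTN, 0.132 to 0.3775 for TAX1BP1, -0.0006 to 0.1401 for CALCOCO2 and 0.0808 to 0.3528 for TBK1. Among partner genes they ranged from -0.2423 to 0.0022 for BAG3, -0.2942 to 0.0168 for IKBKE, -0.3452 to 0.0712 for IKBKG, -0.3438 to 0.0653 for MAP1LC3A, -0.2492 to 0.0118 for RAB35 and -0.3682 to 0.0307 for TBKBP1. The cause of these changes was not tested.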
